A study of Mus musculus with 2 samples.

Results

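The Fos and Jun subunits of activator protein-1 (AP-1) were described across the cell classes of the aorta in control and diabetic mice. They are the 4 Fos-family genes Fos, Fosb, Fosl1 and Fosl2 and the 3 Jun-family genes Jun, Junb and Jund, chosen by name, and make up 7 of the 19357 genes listed in either deposited matrix. Both groups were male Apoe-/- mice of strain C57BL/6, which lack apolipoprotein E and are prone to atherosclerosis. The diabetic group received streptozotocin, a toxin of insulin-producing beta cells, at 55 mg/kg per day for 5 days from 6 weeks of age, and the control group received citrate vehicle. Both were followed for 10 weeks and labelled as 17 weeks old at sampling. For each group 1 library was made from the pooled aortic cells of 4 animals, after enzymatic digestion in the warm, a further warm incubation and a sort for cells that kept out 7AAD and took up calcein.

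The authors gave 1 of 13 cell classes to 3060 control and 2524 diabetic cells. These cells had a median of 3760 and 4477.5 unique molecular identifiers (UMIs), each of which marks 1 captured transcript. Since each group is a single library, differences between them could not be set against replicate libraries and no test was run. Every 95% interval covers counting error and not the spread between mice. Intervals of levels, ratios and shares of UMIs count each UMI as independent. They leave out uneven spread of UMIs among cells, and are too narrow for genes with such spread. Of the 13 classes, 7 had at least 50 cells in each library and were compared, namely 2 smooth muscle classes (VSMCs-1 and VSMCs-2), 3 fibroblast classes (Fib-1 to Fib-3), endothelial cells (ECs) and macrophages (Mac). All 8 markers each of smooth muscle, fibroblasts, endothelium and macrophages were detected in the classes of that name. Levels are given as CPM, a gene's UMIs per 1000000 UMIs of the class. In Mac the 8 macrophage markers summed to 40695 CPM (control) and 25475 CPM (diabetic), and 5 granulocyte markers to 3676 and 5273 CPM, and their part in the AP-1 differences of Mac was not tested. Haemoglobin made up 0.217% of UMIs in annotated control and 1.14% in annotated diabetic cells. The libraries shared 8 annotated barcodes.

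AP-1 binds DNA as a dimer: a Fos protein needs a Jun partner, while Jun proteins can also pair with each other or with related proteins of the ATF family. Fos, Fosb, Jun and Junb are immediate early genes, transcribed within minutes after growth factors, cytokines, stretch or injury without new protein synthesis. In vessels AP-1 is known for roles in inflammation, matrix turnover and smooth muscle phenotype.

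On GRCm38 (mm10) the Fos-family genes lie at chr12:85473890-85477273 on the plus strand (Fos), chr7:19302696-19310051 on the minus strand (Fosb), chr19:5447547-5455946 on the plus strand (Fosl1) and chr5:32135801-32157842 on the plus strand (Fosl2). The Jun-family genes lie at chr4:95049034-95052222 on the minus strand (Jun), chr8:84974484-84978718 on the minus strand (Junb) and chr8:70698949-70700616 on the plus strand (Jund). Jun and Jund have 1 annotated exon. Fosl1, Jun, Junb and Jund overlap a gene on the opposite strand (Ccdc85b, the antisense RNA Junos, Prdx2 and the antisense RNA Gm11175). Whether the counting used strand was not given in the sources used here, so these 4 levels are uncertain to that extent.

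Promoters of 6 subunits were found among 32851 RefSeq promoters (build GRCm38.p6, 250 bases before to 50 after each start). The 4 subunits with most UMIs were Fos, Fosb, Junb and Jun, and their 120 bases upstream of the start are shown because they made up most of the AP-1 pool. Capitals mark TGACG, the core of the cyclic AMP response element, TGACATCA, the Jun variant of that element, and TATAAA.
Fos, chr12:85473770-85473889, plus strand: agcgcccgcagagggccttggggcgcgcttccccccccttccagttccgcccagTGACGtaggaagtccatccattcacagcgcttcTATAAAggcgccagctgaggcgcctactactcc
Fosb, chr7:19310046-19310165, minus strand: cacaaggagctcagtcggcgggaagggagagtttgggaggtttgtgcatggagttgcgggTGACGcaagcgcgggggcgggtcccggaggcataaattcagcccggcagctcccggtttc
Jun, chr4:95052223-95052342, minus strand: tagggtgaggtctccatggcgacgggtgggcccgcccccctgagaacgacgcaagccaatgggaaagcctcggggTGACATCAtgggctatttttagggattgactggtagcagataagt
Junb, chr8:84978749-84978868, minus strand: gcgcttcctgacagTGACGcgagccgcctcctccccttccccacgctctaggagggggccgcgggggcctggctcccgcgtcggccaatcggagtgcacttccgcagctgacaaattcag
Fos held TGACG from -66 to -62 before its start, Fosb from -60 to -56 and Junb from -106 to -102, and Fos held a further match outside the stretch shown. Jun held TGACATCA from -45 to -38, and Fos TATAAA from -33 to -28. Junb also held TATAAA, at bases 1 to 6 from its RefSeq start and so outside the stretch shown. That start lies upstream of the Junb gene position given above. Searched on both strands, TGACG occurred in 20.8% of all promoters, TGACATCA in 3.62% and TATAAA in 13.6%. The full element TGACGTCA (1.79% of promoters, overlapping TGACG), the AP-1 site TGANTCA (7.81%) and the CArG box (1.63%) matched in none of the 6 windows. CCAAT (37.4%) matched in Jun and Junb, and the GC box GGGCGG (35.7%) in Fos, Fosb, Fosl2 and Jun. These matches describe letters and show no binding. Sequence more than 250 bases before a start was not searched, so a missing match, as of the CArG box in Fos, holds for the window alone.

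Fos, the founding member of its family, was the most abundant subunit in smooth muscle, endothelial and fibroblast classes. UMIs count molecules at the transcript's 3' end, so no length scaling was applied, although capture can differ between genes. In the control library Fos stood at 5043 CPM in VSMCs-2 (interval 4960 to 5127), 4239 CPM in Fib-2 (4172 to 4307), 3876 CPM in ECs (3760 to 3995) and 3687 CPM in Fib-1 (3524 to 3856). The intervals of ECs and Fib-1 overlapped. Lower down came VSMCs-1 at 2388 CPM, Fib-3 at 1244, foam cells at 783, NKT cells at 610 and Mac at 461 CPM. The smallest values were 62.4 CPM in T cells (3 UMIs) and 176 CPM in MoDC, a class whose name the labels do not spell out. The diabetic library had VSMCs-2 at 4426 CPM (4371 to 4481) and ECs at 4381 CPM (4242 to 4524), 2 values that did not separate. These orders describe classes that the authors formed from the same cells, and the classes' own definition may have used AP-1 genes.

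Fosb, a close relative of Fos that is also an immediate early gene, had another order. Its level was highest in Fib-1, at 1752 CPM (1641 to 1870) in the control and 2119 CPM (1965 to 2282) in the diabetic library, followed by Fib-2 at 1202 and 1605 CPM and Fib-3 at 829 and 1161 CPM. VSMCs-2 held 599 and 645 CPM, and VSMCs-1 158 and 284 CPM. In control Mac, Fosb stood at 498 CPM (471 to 525) beside 461 CPM (435 to 487) for Fos, so neither subunit led there.

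Fosl1 (Fra-1) and Fosl2 (Fra-2), which lack the strong activation domain of Fos, were scarce. Fosl1 reached 71.1 CPM (52.9 to 93.4) in control and 113 CPM (82.7 to 152) in diabetic Fib-3, where 27.4% and 28.4% of cells held a UMI at full depth. At most 21.2 CPM was found in any other of the 7 classes, in Mac. No Fosl1 UMI was seen in VSMCs-1, where 3 UMIs, the most that a count of 0 allows, would be 9.27 CPM in control and 6.88 CPM in the diabetic library. Fosl2 had its highest levels in NKT cells, 273 CPM (169 to 417) and 269 CPM (187 to 374), ahead of Mac at 115 and 160 CPM and Fib-3 at 114 and 131 CPM.

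Junb, which tempers transactivation by Jun in many settings, was the leading Jun-family transcript in all 7 classes compared in both libraries. Its level in the control and the diabetic library was 1089 and 1436 CPM in Fib-1, 775 and 1206 CPM in Fib-2, 642 and 828 CPM in Fib-3, 506 and 1041 CPM in ECs, and 475 and 598 CPM in Mac. Smooth muscle was lowest, with 416 and 574 CPM in VSMCs-2 and 167 and 282 CPM in VSMCs-1. NKT cells, with 32 and 51 cells, stood as high as Fib-1, at 1130 CPM (905 to 1394) and 1468 CPM (1267 to 1692). Jun, the strongest activator of its family, was highest in Fib-1 in the control library (566 CPM), while Fib-1 and ECs shared 473 CPM in the diabetic library. It was lowest among the 7 classes in VSMCs-1 (71.0 CPM) and Mac (79.1 CPM) of the control cells, 2 values whose intervals overlapped. Jund, which is less inducible than Jun and Junb, ranged over the 7 classes in control cells from 46.3 CPM in VSMCs-1 to 234 CPM in Fib-1, with Mac at 201 CPM.

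**Figure D1:**
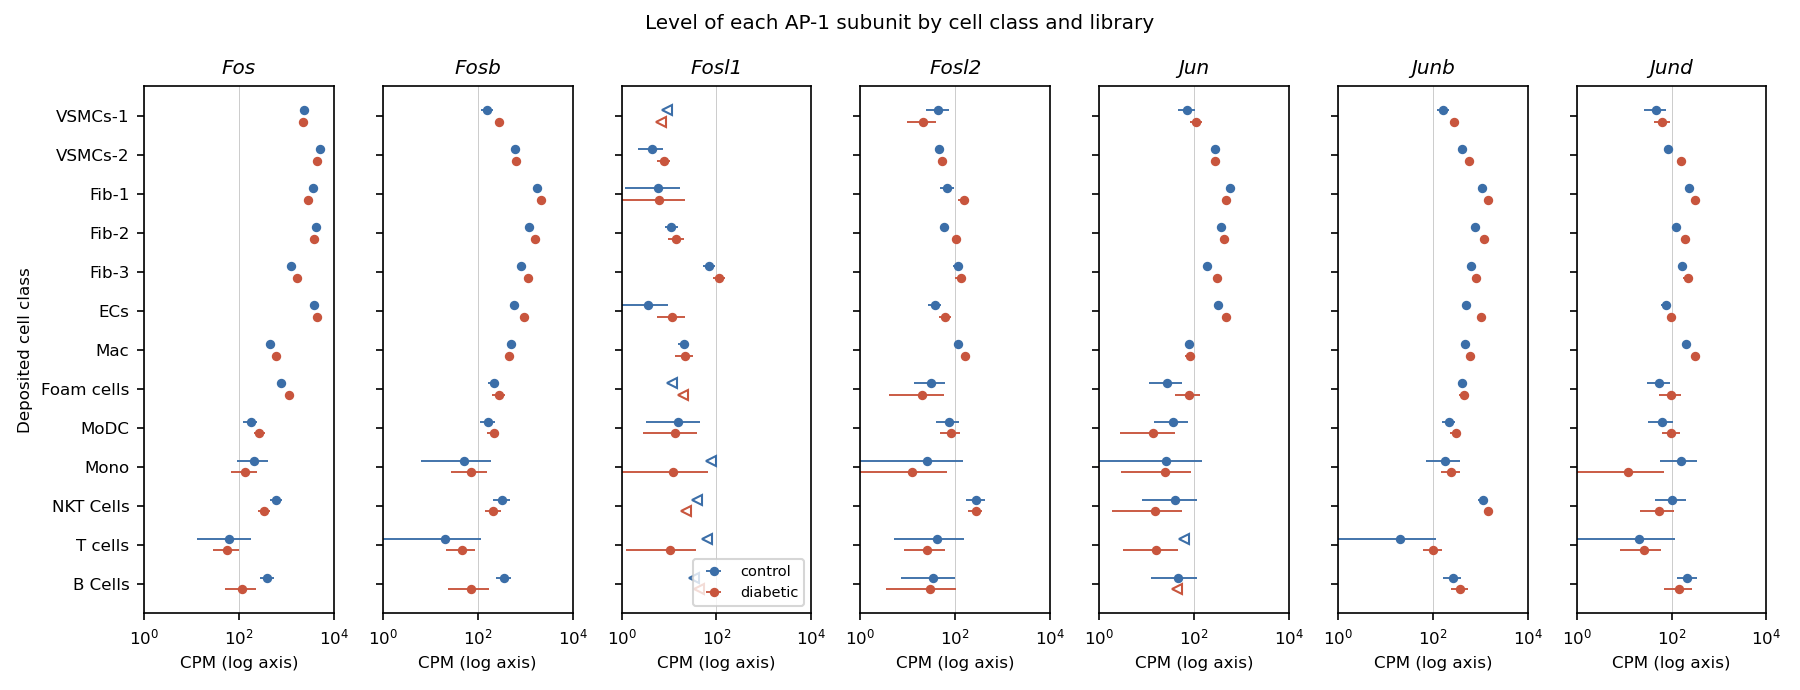
Level of each subunit in CPM (log axis) in the 13 deposited classes, control in blue and diabetic in red, with exact Poisson 95% intervals as bars and open triangles at the floor of 3 UMIs where no UMI was seen. Fos runs from 5043 CPM in control VSMCs-2 to 56.6 CPM in diabetic T cells, while Junb peaks in Fib-1 and NKT cells.

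The make-up of the AP-1 pool differed between classes, and it does not depend on how libraries were scaled. Fos alone was 83.1% of the 7 subunits' UMIs in control VSMCs-1, 78.1% in VSMCs-2 and 71.8% in ECs. Its share was lower in fibroblasts, at 38.2% in Fib-3, 49.8% in Fib-1 and 62.5% in Fib-2, and lowest of the 7 classes in Mac at 24.9%. The Fos family as a whole held 59.2% of AP-1 UMIs in control Mac (57.8 to 60.6%), against 90.1% in VSMCs-1 (88.01 to 91.95%). In NKT cells the Fos-family share was 48.7% (41.4 to 56.0%) of 191 UMIs in control, where neither family led, and 35.1% (29.7 to 40.7%) of 308 UMIs in diabetic cells, where the Jun family held more.

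Between the libraries the pool shifted from the Fos family toward the Jun family in 6 of the 7 classes compared. The Fos-family share was 83.2% in control and 77.0% in diabetic ECs, a difference of -6.16 percentage points (-7.59 to -4.73). Fib-2 went from 81.3% to 75.2% (-6.04 points, -6.88 to -5.21), VSMCs-1 from 90.1% to 85.1% (-5.03, -7.70 to -2.26), and VSMCs-2 from 88.1% to 83.5% (-4.62, -5.23 to -4.00). In Fib-1 the share moved from 74.5% to 70.0% (-4.53, -6.81 to -2.26) and in Mac from 59.2% to 55.2% (-3.94, -6.32 to -1.55). Fos alone went the other way in Mac, from 24.9% to 27.0% of AP-1 UMIs. The Fos-family share of Fib-3 stayed level in these data, at 69.4% and 69.2%, with an interval of the difference from -3.05 to 2.66 points. Giving every cell with an AP-1 UMI the same weight gave -1.94 points in ECs and -2.05 in VSMCs-1, smaller differences of the same sign. The difference kept its sign in these 6 classes without cells of over 10% haemoglobin UMIs, at -6.31 points in ECs and -4.07 in Fib-1. Haemoglobin UMIs were 0.252% of all UMIs in control and 4.61% in diabetic Fib-1, 0.0113% and 2.04% in Fib-3, and 0.0116% and 1.15% in VSMCs-2.

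**Figure D2:**
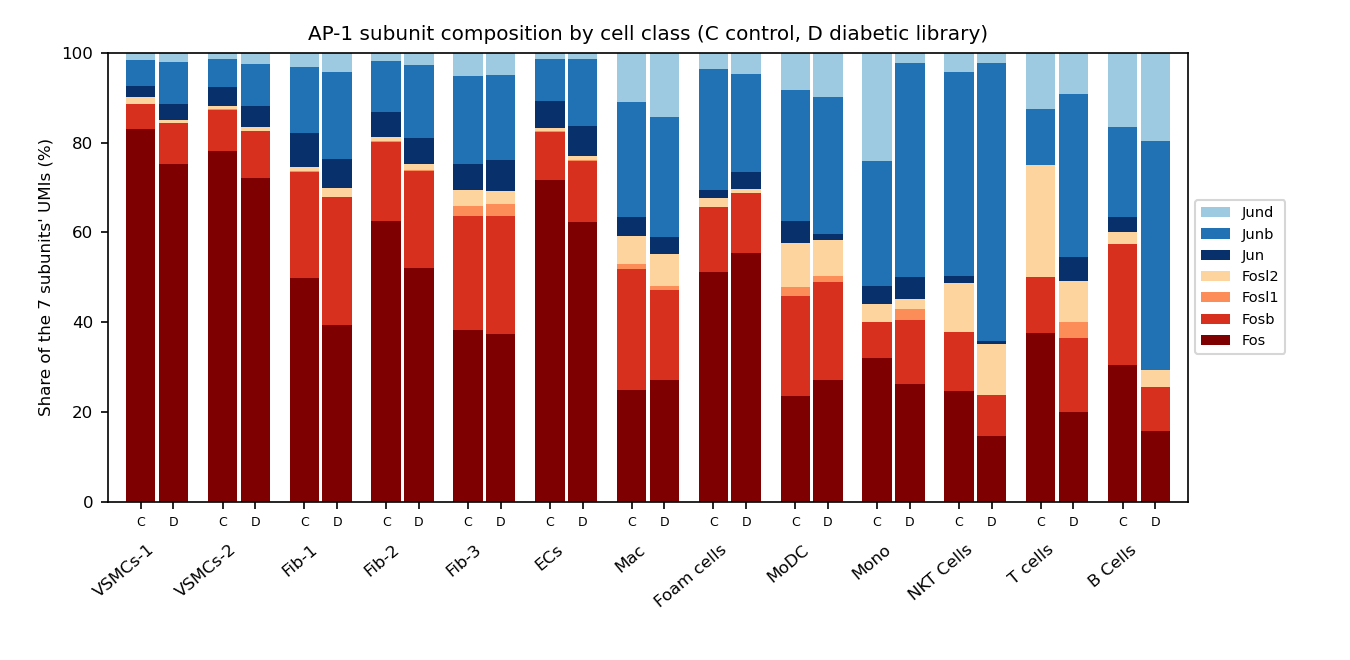
Stacked bars of each subunit's share (%) of all AP-1 UMIs, by deposited class, with the control (C) and diabetic (D) library side by side and the Fos family in red tones below the Jun family in blue tones. The red part is 83.2% in control and 77.0% in diabetic ECs; classes right of Mac rest on few UMIs, 8 in control T cells.

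Summed over Jun, Junb and Jund, transcript levels were higher in the diabetic library in all 7 classes, each with an interval above 1. The ratio of diabetic over control CPM was 1.78 in ECs (1.64 to 1.93), 1.61 in VSMCs-1 (1.25 to 2.08), 1.45 in Fib-2 (1.39 to 1.51), 1.36 in Fib-3 (1.22 to 1.53), 1.32 in VSMCs-2 (1.26 to 1.39), 1.32 in Mac (1.23 to 1.42) and 1.18 in Fib-1 (1.07 to 1.30). The Fos-family sum had no such common direction. It was 1.35 in Fib-3 (1.25 to 1.46), 1.20 in ECs (1.16 to 1.25), 1.13 in Mac (1.05 to 1.20), 1.01 in both VSMCs-1 and Fib-2, 0.941 in Fib-1 (0.886 to 0.999) and 0.902 in VSMCs-2 (0.884 to 0.919). In all annotated cells together the ratios were 1.25 for the Jun family and 1.09 for the Fos family. An interval above 1 sets no minimum size, and the share of all genes with such an interval was not counted. Of the housekeeping genes, Eef1a1 stood at 1.24 in VSMCs-2, 1.25 in Fib-2 and 1.21 in both ECs and Mac, each with an interval above 1. Actb stood at 0.816, 1.09, 0.966 and 0.962 in VSMCs-2, Fib-2, ECs and Mac.

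Single subunits were called higher or lower where the ratio was at least 1.5-fold with an interval excluding 1, for genes with at least 30 UMIs over both libraries. Of 49 subunit and class pairs 45 could be tested, 13 were higher in the diabetic library, and none was lower. The Jun family gave 7 of its 21 tested pairs and the Fos family 6 of 24. In VSMCs-1 2 of 5 tested subunits were higher, where 3.23% of 3032 genes tested were higher and 4.82% lower. In VSMCs-2 it was 1 of 7 (4.77% of 9729 genes higher and 3.9% lower), and in Fib-1 1 of 6 (3.45% and 5.26% of 3423). Fib-2 had 3 of 7 (5.43% and 3.62% of 9281), Fib-3 2 of 7 (4.15% and 6.58% of 4026) and ECs 3 of 6 (4.18% and 4.02% of 6096). Mac had 1 of 7, with a background of 8.79% higher and 5.66% lower among 7373 genes. The counts of VSMCs-2, Fib-1 and Mac rest on 1 subunit each and are no result about the family. In all annotated cells 0 of 7 were called, against 8.95% and 10.1% of 12753 genes.

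Junb, Fosb and Fosl2 were higher in ECs. Junb went from 553 UMIs in control to 889 UMIs in diabetic ECs, a ratio of 2.06 (1.85 to 2.29), and Fosb from 631 to 819 UMIs, a ratio of 1.66 (1.496 to 1.85). Fosl2 in ECs had 41 and 53 UMIs and a ratio of 1.65 (1.08 to 2.55), whose interval reached 0.987 without the cell holding most Fosl2 UMIs in each library. Junb had a ratio with an interval above 1 in 7 of 7 classes, Fosb in 6 of 7, Jund in 4 of 7 and Jun in 3 of 7. Fosl2 had one in 4 of 6 classes tested and Fosl1 in 1 of 4. For Fos 3 of 7 intervals lay above 1 and 3 below, and for Fosb 1 lay below. The share of all genes with an interval above 1 was not counted, so these counts have no background. Fosl2, at 35 and 50 UMIs in Fib-1, had the highest ratio of the 45 pairs, 2.24 (1.43 to 3.56). Jund was 1.92-fold higher in VSMCs-2 (229 and 902 UMIs) and 1.58-fold in Mac, where trimmed mean scaling gave 1.46. Fosl1 in Fib-3 (51 and 45 UMIs) had a ratio of 1.59 (1.04 to 2.43), which was 1.23 without the single cell holding most Fosl1 UMIs in each library. Fosb in VSMCs-1 had a ratio of 1.80 (1.29 to 2.55), which was 1.38 with cells weighted equally. Fos was past 1.5-fold in no class. The median log2 ratio over the tested subunits was 0.63 in ECs beside -0.03 for all genes, 0.63 in VSMCs-1 beside -0.02, 0.42 in Fib-2 beside 0.03, 0.41 in Fib-3 beside -0.08, 0.34 in Fib-1 beside -0.08, 0.33 in Mac beside 0.06 and 0.20 in VSMCs-2 beside 0.02. In Mac that median was 0.0497 with every cell weighted equally.

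**Figure D3:**
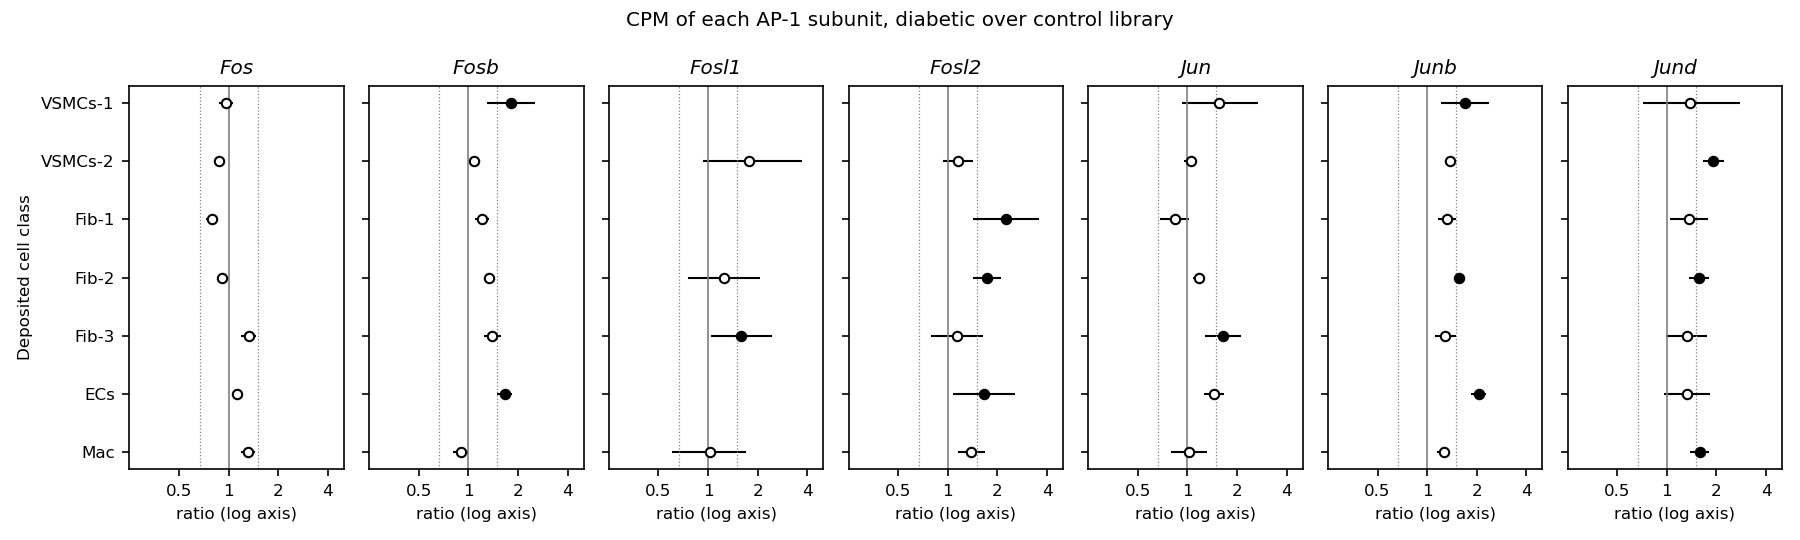
Ratio of CPM, diabetic over control (log axis), for each subunit with at least 30 UMIs in the 7 classes compared, with 95% intervals of counting error; filled points passed the 1.5-fold rule and dotted lines mark 1.5-fold either way. Filled points lie to the right of 1 in all 13 cases, and Fos has none.

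Detection per cell was read after each cell was thinned to 1000 UMIs, which left out 175 control and 176 diabetic cells that were shallower. Any AP-1 subunit was then seen in 86.7% of control and 88.6% of diabetic VSMCs-2, in 60.9% and 76.8% of ECs, and in 16.7% and 29.1% of T cells. T cells were the lowest class, with 12 and 55 cells left, and no class is known to lack these genes. A Fos UMI was found in 82.3% of control VSMCs-2 (78.6 to 85.5%) and 82.8% of diabetic VSMCs-2 (80.1 to 85.3%), in 51.0% (45.6 to 56.4%) and 65.0% (58.3 to 71.3%) of ECs, and in 16.5% and 25.1% of Mac. Unthinned, the Mac shares were 49.8% and 45.0%, a difference of the opposite sign, so no order was read there. The unthinned Fos share was 59.6% and 72.4% in ECs at median depths of 2867 and 3504 UMIs. T cells, at median depths of 2432 and 1423 UMIs, had an unthinned Fos share of 23.1% and 11.7%.

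Fos was unevenly spread among cells of a class. In control ECs the median was 1 Fos UMI per thinned cell, the 90th percentile 11 and the highest 31, with a variance 8.90 times the mean. In control VSMCs-2 the median was 3, the 90th percentile 13 and the highest 36. Control Mac had a median of 0 and a 90th percentile of 1, yet 1 cell held 26 Fos UMIs, and the variance was 8.31 times the mean. Junb was spread more evenly in the same Mac cells, with a highest value of 4 and a variance 1.14 times the mean. The intervals of Fos levels, ratios and UMI shares do not include the spread of Fos among cells, so they are too narrow.

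A Fos protein needs a Jun partner, so transcripts of both families were counted in the same cells. At 1000 UMIs 35.3% of control ECs (30.2 to 40.6%) and 52.7% of diabetic ECs (45.9 to 59.5%) held both, a difference of 17.5 points (9.06 to 25.6). The mean over 20 thinnings was 32.6% and 50.2% in ECs, 52.3% and 61.9% in Fib-2, and 40.4% and 48.0% in VSMCs-2, so the VSMCs-2 difference was smaller over many thinnings than in the single one given next. In VSMCs-2 the shares were 39.7% and 51.1%, a difference of 11.3 points (5.83 to 16.7) that was 4.02 at 500 UMIs, and in Fib-2 50.7% and 61.5%, a difference of 10.8 points (5.52 to 16.0) that was 4.77 without thinning. Fib-3 had 43.6% and 56.7%, with an interval that held 0 (-1.83 to 27.3 points). In Fib-1 the values were 60.4% and 58.2%, also with an interval that held 0 (-11.9 to 7.36). No order was read for VSMCs-1 (12.8% and 23.97%) and Mac (26.6% and 35.2%), because at 500 UMIs per cell their differences were -0.896 and -0.277 points.

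Cells with a Fos-family UMI more often held a Jun-family UMI than cells without one. In control ECs a Jun-family UMI was present in 64.4% of Fos-family-positive and 13.5% of Fos-family-negative cells, and in diabetic ECs in 75.3% and 22.7%. These shares were 46.9% and 13.2% in control VSMCs-2, 66.3% and 14.1% in control Fib-2, and 80.2% and 14.7% in control Fib-1. Fib-3 had 68.9% and 41.9%, and VSMCs-1 25% and 11.3%, in control cells. The same shares in Mac were 52.0% and 41.6% in control and 64.2% and 44.4% in diabetic cells. Jun-family UMIs without any Fos-family UMI were found in 20.3% of control and 20.1% of diabetic Mac, and in 2.02% and 2.57% of VSMCs-2.

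**Figure D4:**
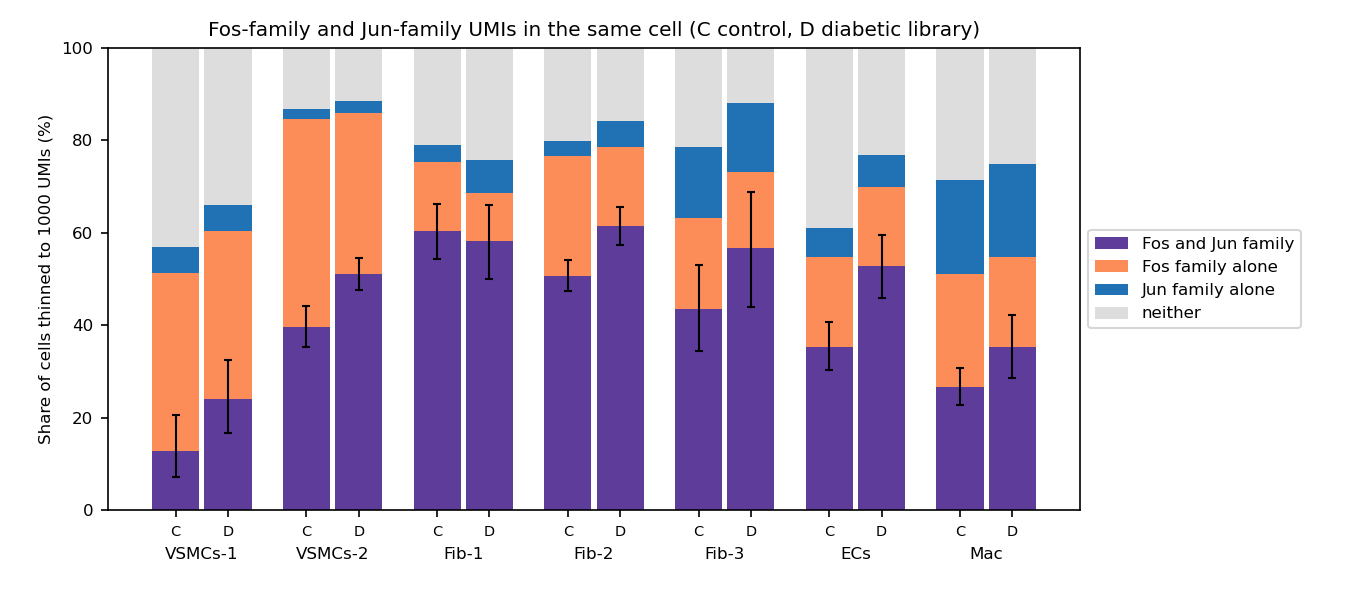
Share of cells (%) thinned to 1000 UMIs that held UMIs of both families, of the Fos family alone, of the Jun family alone or of neither, in the 7 classes compared, control (C) beside diabetic (D); bars on the lowest segment are exact 95% intervals. The lowest segment is 35.3% in control and 52.7% in diabetic ECs, and the Jun-only segment is about as wide as the Fos-only segment in diabetic Mac (20.1% and 19.6%).

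The number of subunits seen per cell depends on depth. At 1000 UMIs at least 4 subunits were seen in 14.4% of control and 26.8% of diabetic Fib-2, 8.75% and 14.5% of ECs, 9.68% and 15.3% of VSMCs-2, 27.6% and 24.2% of Fib-1, and 2.21% and 6.53% of Mac. No cell held all 7 at this depth, and 6 was the highest number. At full depth 42.7% of all annotated control and 51.3% of diabetic cells held at least 4, and 15 and 21 cells held all 7.

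Single pairs were set against the product of their shares, the number that independent detection would give, where that product was at least 5 cells. Of 155 such values over both libraries 143 lay above 1, including 22 of 22 in ECs, 28 of 28 in VSMCs-2 and 21 of 25 in Mac. Pairs of other genes were not counted, so the share of them above 1 is not known and these counts are no result about AP-1. The values are given without intervals, and some lay close to 1. Fosb and Junb were seen together in 51 of 343 control ECs, 2.45 times the product, and in 54 of 220 diabetic ECs, 1.498 times. Fos and Junb reached 1.82 and 1.31 times the product in ECs, 1.14 and 1.15 in VSMCs-2, and 1.02 and 1.22 in Mac. Fos with Jund stood at 1.47 and 1.33 in ECs, 1.09 in VSMCs-2 of both libraries, 1.03 in Fib-2 of both, and 0.808 and 0.955 in Mac. Where a subunit is seen in most cells, as Fos in VSMCs-2, the ratio cannot rise far above 1. Every cell had the same depth after thinning, and doublets were not called.

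**Figure D5:**
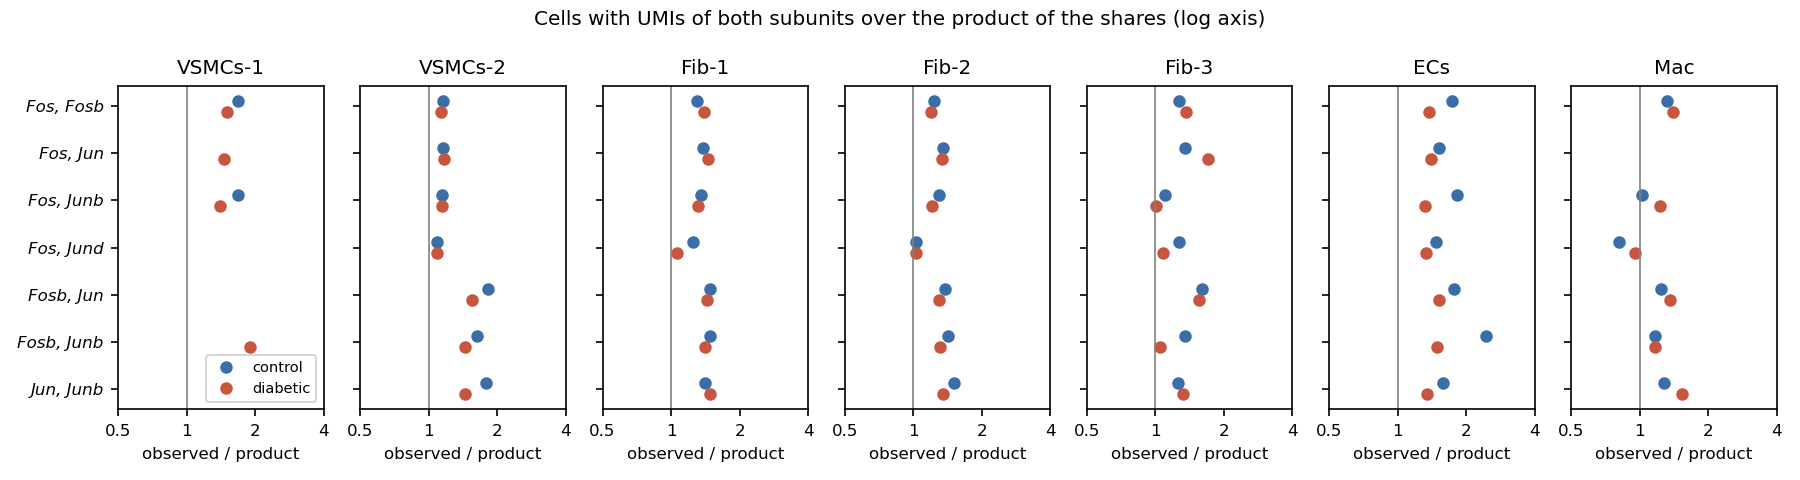
Number of thinned cells with UMIs of both named subunits over the product of their shares (log axis), for 7 pairs in the 7 classes compared, control in blue and diabetic in red; points are missing where the product was under 5 cells. Most points lie right of 1, with Fosb and Junb in control ECs at 2.45 and Fos and Jund in control Mac at 0.808.

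Across thinned cells of a class, Pearson's r of log2(UMIs + 1) gave the same picture, as a description in cells that share 1 library. For Fos and Junb r was 0.56 and 0.53 in ECs (343 and 220 cells), 0.49 and 0.57 in Fib-1, 0.42 and 0.45 in VSMCs-2, 0.44 and 0.35 in VSMCs-1, and 0.43 and 0.41 in Fib-2. It was lower in Fib-3 (0.14 and 0.09) and Mac (0.06 and 0.24). Among other genes seen in at least 10% of cells, Egr1, an immediate early zinc finger factor, was among the 5 most alike in 20 of 30 subunit and class combinations. Atf3, a stress-induced dimer partner of Jun, was among them in 17, and Zfp36, which speeds decay of AU-rich transcripts, in 13. Egr1 followed Fos with r of 0.53 and 0.54 in Fib-1 and 0.45 and 0.46 in VSMCs-2, and Zfp36 followed Fos with 0.55 and 0.53 in ECs. In Mac the gene most alike to both Fos (0.31 and 0.31) and Fosb (0.24 and 0.28) was Hspa1a, an inducible heat shock chaperone.

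Over the 14 class and library sums some subunits ran closer together than others. Fosb and Junb had r of 0.961 on log2(CPM + 1), and Fosl2 and Jund 0.867, whereas Fos had 0.304 with Fosb and 0.192 with Junb. Jun stood between them, with 0.721 for Fos, 0.855 for Fosb and 0.786 for Junb. Non-member genes closest to Fos were Mical2 (0.985), Amotl1 (0.972) and Plpp1 (0.944). For both Fosb (0.967) and Junb (0.957) the closest was Socs3, a feedback inhibitor of cytokine signalling. Both libraries of a class enter these sums, so the points are not independent.

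Other dimer partners were mostly not called in any class compared. Of the related basic leucine zipper genes 11 were tested in ECs and 1 was higher, beside 4.18% of all genes. It was Maff, a small Maf factor, at 6 and 24 UMIs (ratio 5.12, 2.04 to 15.3). Maff was also higher in Fib-2 (1.87, 1.39 to 2.51) and Fib-3 (1.93, 1.13 to 3.28), and in Fib-2 4 of 15 partners were higher, where 5.43% of all genes were. Fib-3 had 1 of 11 higher, beside 4.15% of all genes. VSMCs-1 had 1 of 6 higher, Nfe2l2 (2.17, 1.10 to 4.58), beside 3.23% of all genes. VSMCs-2 had 1 of 15 higher, Atf1 (1.67, 1.16 to 2.43), beside 4.77%, and Fib-1 had 0 of 8. In Mac 2 of 19 were higher, near the 8.79% of all genes, and 2 lower, beside 5.66% of all genes. Batf, which pairs with Jun proteins in leukocytes, was among those lower at a ratio of 0.647 (0.528 to 0.788). In all annotated cells 6 of 20 partners were lower, against 10.1% of all genes, and none higher. The pooled cells differed in class make-up, with 510 control and 229 diabetic Mac, and within the 7 classes Mac was the only one with a lower partner. The part of class make-up in the pooled partner ratios was not tested.

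Upstream kinases and the factors that act on Fos and Jun promoters were mostly not called. Of the mitogen-activated protein kinase pathway genes 2 of 20 tested were higher in VSMCs-2, Map2k1 (1.52) and Hras (1.60), where 4.77% of all genes were higher. In ECs 1 of 12 was higher, Map2k3, which activates p38 (1.56, 1.15 to 2.11), beside 4.18% of all genes, and Map3k1 was lower (0.549, 0.336 to 0.874). Map2k3 was also higher in Fib-1 (2.27, 1.35 to 3.85) and Fib-3 (2.27, 1.38 to 3.77). Serum response factor (Srf), which binds the serum response element of Fos, was 2.05-fold higher in all annotated cells (1.70 to 2.47). VSMCs-2 made up 496 of 3060 control and 856 of 2524 diabetic annotated cells. The class held 85 of 177 control and 250 of 346 diabetic Srf UMIs, with a ratio of 1.43 (1.11 to 1.85) that did not pass 1.5-fold. The Srf ratio was 2.45 in Mac (17 and 18 UMIs) and 1.72 in Fib-2 (30 and 30 UMIs). The part of class make-up in the pooled Srf ratio was not tested. Among genes that limit AP-1, 2 of 11 tested were higher in ECs, beside 4.18% of all genes. They were Dusp1, a phosphatase of mitogen-activated protein kinases (1.55, 1.32 to 1.82), and Cop1, part of a ubiquitin ligase for Jun (2.35, 1.28 to 4.43). In Mac 2 of 14 were higher, beside 8.79% of all genes, namely Dusp5 (2.32, 1.65 to 3.26) and Dusp10 (1.65, 1.01 to 2.65). Fib-1 had 1 of 7, Zfp36l1 (1.52, 1.19 to 1.95), beside 3.45%. None was called in VSMCs-1, VSMCs-2, Fib-2 or Fib-3, and none was lower in any class compared.

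Other immediate early genes gave the most higher calls in ECs and Fib-2, each with 3 AP-1 subunits higher, and had some in every class compared. In ECs 9 of 28 tested were higher and none lower, beside 4.18% and 4.02% of all genes. They were led by Ier2 (2.41, 2.01 to 2.88), Ier3 (1.91), Nfkbiz (2.14) and Socs3 (1.96), with a list median of 0.54 on the log2 scale. In Fib-2 8 of 33 were higher and none lower, beside 5.43% and 3.62% of all genes. They were led by Csrnp1 (1.93), Nr4a3 (2.05), Ier5 (1.91) and Ier2 (1.77), with a median of 0.46. VSMCs-1 had 1 of 18 higher, Klf4 (1.94), and 2 lower, Sgk1 (0.572) and Ctgf (0.643), beside 3.23% and 4.82% of all genes. Fib-1 had 5 of 29 higher and 1 lower (3.45% and 5.26% of all genes), and Fib-3 5 of 29 higher and 2 lower (4.15% and 6.58%). VSMCs-2 had 3 of 34 higher and none lower (4.77% and 3.9%), and Mac 4 of 30 higher and 1 lower (8.79% and 5.66%). Heat shock genes were lower in smooth muscle, 8 of 13 in VSMCs-1 (median -0.67) and 5 of 15 in VSMCs-2 (median -0.48), beside 4.82% and 3.9% of all genes. Those of VSMCs-1 were led by Hspa8 (0.479) and Hspb1 (0.386). Elsewhere some inducible chaperone genes were higher: Hspa1a (2.35) and Dnajb1 (1.92) in Fib-1, Dnajb1 (1.55) and Hspa1b (1.51) in Fib-2, Dnajb1 (2.05) and Hspa1a (1.53) in Fib-3, and Hspa1b in ECs (1.90) and Mac (1.93). Other heat shock genes were lower, namely Hspd1 (0.438), Hspa8 (0.651) and Hspe1 (0.660) in Fib-1 and Hsp90ab1 (0.580) in Fib-3. Fib-1 had 2 of 14 higher and 4 lower, beside 3.45% and 5.26% of all genes. Fib-3 had 2 of 14 higher and 2 lower, beside 4.15% and 6.58%. Hspa1a in Mac was not called (0.937, 0.841 to 1.04). The list median was -0.22 in ECs, -0.15 in Fib-2 and 0.01 in Mac, and Hspa5, a chaperone of the endoplasmic reticulum, was lower in ECs (0.608) and in Fib-1 (0.514), Fib-2 (0.485) and Fib-3 (0.488). The part of digestion or of stress genes in the AP-1 differences was not tested.

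Known AP-1 target genes showed no common direction across the classes compared. In all annotated cells, whose class make-up differed between libraries, 12 of 29 were lower and none higher, against 10.1% and 8.95% of all genes. VSMCs-1 had 3 of 12 lower and none higher, beside 4.82% and 3.23% of all genes, led by Spp1 (0.0640). Fib-1 had 5 of 23 higher and 2 lower (3.45% and 5.26%), and Fib-3 2 of 23 higher and 1 lower (4.15% and 6.58%). ECs had 5 of 19 higher and none lower, beside 4.18% and 4.02% of all genes. Those higher included Cxcl1, a neutrophil chemokine (1.86, 1.48 to 2.34), and Hbegf, an EGF receptor ligand (1.79, 1.46 to 2.21). In Fib-2 6 of 27 were higher and 2 lower, beside 5.43% and 3.62% of all genes. Those higher included Mmp13, a collagenase (4 and 42 UMIs), the metallothioneins Mt1 (1.79) and Mt2 (1.93), and Ptgs2, cyclooxygenase-2 (1.99). Fn1 (0.474) and Timp1 (0.617) were lower. In VSMCs-2 8 of 25 were lower and 3 higher, beside 3.9% and 4.77% of all genes. Those lower were led by Spp1, osteopontin, at 313 and 13 UMIs (0.0202, 0.0106 to 0.0351), and Vcam1 (0.294). Mt1 (1.52), Mt2 (1.56) and Cxcl1 (1.54) were higher. In those cells the 8 macrophage markers fell from 180 to 39.0 CPM, and their part in the Spp1 difference was not tested. Mac had 8 of 26 lower and 3 higher, beside 5.66% and 8.79% of all genes. Those lower included Plaur (0.558), Hmox1 (0.624), Cxcl1 (0.426) and Vcam1 (0.377), and Spp1 was among those higher (4.83, 4.09 to 5.72).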

How the data were processed

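The authors deposited unnormalized UMI counts for every barcode of each library. Per the submitters' processing notes the tools were Cell Ranger 3.1.0 and Partek, and the build was mm10. A deposited table gives the authors' class of each annotated barcode; barcodes without a class were left out. The annotation used for counting was not given in the sources used here. UMIs were summed per class and library, scaled to CPM and given exact Poisson intervals, ratios exact conditional binomial intervals, shares exact Clopper-Pearson intervals and differences of shares Newcombe intervals, all at 95%. Cells were thinned to 1000 UMIs with seed 1. Genes with at least 30 UMIs over both libraries were tested by size. The matrices hold no replicates, so no p-value was computed, and depth limits each value only through its counts. Methods were checked on simulated data. The simulated sums were Poisson counts, which the intervals assume, so the check does not cover the uneven spread of UMIs among cells. Python 3.11.15, numpy 2.4.6, scipy 1.17.1, pandas 2.3.3 and edgeR 4.0.16 (R 4.3.3) were used, edgeR for trimmed mean scaling as an alternative. Members and gene lists were chosen with earlier results of these data known. All 7 subunits were named, with up to 4 members per list and class that passed the size rule, ranked by the interval bound nearest to 1, and any that went against them. Like genes were the 3 closest over class sums (genes with at least 100 UMIs) and the 5 closest across cells by the lower r of the libraries. Positions come from GENCODE on GRCm38 and promoters from RefSeq. Other settings were no or other thinning (500 and 2000 UMIs, seed 2), a 2-fold rule, a minimum of 10 UMIs, totals without mitochondrial, ribosomal protein and haemoglobin genes, equal cell weights, and removal of the top 5% of cells or, for each subunit, of its single highest cell. Removal of shared barcodes or of cells of over 10% haemoglobin and the mean of 20 thinnings were chosen after seeing the data. Unused columns of per-sample values numbered 0.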

Additional observations from a re-analysis of the deposited data

Results flagged for a closer look

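The ratio of Fos, diabetic over control CPM, lay on different sides of 1 in different classes, each with an interval of counting error that excluded 1. It was 0.878 in VSMCs-2, 0.789 in Fib-1 and 0.911 in Fib-2, against 1.32 in Fib-3, 1.13 in ECs and 1.31 in Mac. With every cell weighted equally Fos in Mac was 1.04. Fosb had a ratio of 0.898 in Mac and above 1 in the other 6 classes, at 1.80 in VSMCs-1, 1.66 in ECs and 1.40 in Fib-3, followed by Fib-2 (1.34), Fib-1 (1.21) and VSMCs-2 (1.08). With 1 library per group the difference between classes was not tested. These intervals also leave out the spread of UMIs among cells.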

How the results depend on the processing

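Of 360 subunit ratios recomputed under other settings, 340 moved by less than their counting interval. Of the 13 higher pairs, Fosb in VSMCs-1 (1.38) and Fosl1 in Fib-3 (1.38) fell under 1.5-fold with equal cell weights, Fosl1 in Fib-3 (1.23) without its highest cells, Fosl2 in ECs (1.48) without the top 5% of cells and Jund in Mac (1.46) under trimmed mean scaling. With intervals that then held 1, Fosl2 in ECs was also lost without its highest cells (1.55), and on thinned cells Fosb in VSMCs-1 (1.70), Fosl1 in Fib-3 (1.96) and Fosl2 in ECs (1.82). Calls gained were Jund in Fib-1 (1.83) and Junb in Mac (1.56) on thinned cells, and Fosb in Fib-3 (1.51) and Jun in ECs (1.52) with totals free of mitochondrial, ribosomal protein and haemoglobin genes. The number of higher subunit and class pairs was 11 to 15 under the other settings at 1.5-fold and 2 at 2-fold; none was lower under any. Weighting cells equally gave a Mac median of 0.0497 and Fos-family share differences of -2.05 points in VSMCs-1, -1.94 in ECs and -7.60 in Mac. Thinned cells gave -5.41 points in VSMCs-2, -6.81 in Fib-1 and -8.71 in Mac. For the share of cells with both families, 500 UMIs gave -0.896 points in VSMCs-1, 4.02 in VSMCs-2 and -0.277 in Mac, and no thinning gave 4.77 in Fib-2 and -8.63 in Mac. Single shares that changed sign were Fos in Mac without thinning (-4.83 points), Fosb in VSMCs-1 at 500 UMIs (-0.0329) and Jun in Fib-1 at 2000 UMIs (1.64). The cause of these changes was not tested. Trimmed mean scaling shifted log2 ratios in Mac by -0.12. No paired analysis was possible because each group has 1 library, and none could be left out. Levels of Fosl1 and of classes under 50 cells rest on few UMIs.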

Other observations

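Barcodes to which the authors gave no class also held AP-1 transcripts. In the control library 1155 such barcodes had an AP-1 sum of 3465 CPM with 7.32% haemoglobin UMIs, and in the diabetic library 934 had 1018 CPM with 59.3% haemoglobin UMIs. With haemoglobin taken out of the totals the sums were 3739 CPM (3666 to 3812) and 2499 CPM (2436 to 2564).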
